A study of Homo sapiens with 6 samples.

Results

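The SR and hnRNP splicing factor genes were followed in T24 cells, an established human urinary bladder carcinoma line, after knockdown of the E3 ubiquitin ligase TRAIP. The group was chosen by name, with earlier results of these data known. It holds 32 of the 33542 genes in the count table: 13 SR and TRA2 genes and 19 hnRNP genes. All were found and all passed the filter on low counts. Messenger RNA was sequenced in 2 groups of 3 libraries, from T24 cells transfected with a control small interfering RNA (siNC) or with one against TRAIP (siTRAIP); both groups were transfected with Lipofectamine 3000 and grown in RPMI 1640 with serum. No source used here gives the time of harvest or the sequences of both RNAs. The column names carry 1 label for the TRAIP reagent, so the design holds 1 reagent against TRAIP, in 1 line. In the series title TRAIP is named with ubiquitination of the transcription factor MYC, and the groups compare transcript levels with and without the knockdown.

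SR proteins combine RNA recognition motifs with a domain rich in arginine and serine, bind exonic enhancers and mostly favour the use of nearby splice sites; their activity and location depend on phosphorylation by the SRPK and CLK kinases. The hnRNP proteins coat nascent transcripts, often oppose exon inclusion, and also act in mRNA export, stability and translation. Many genes of both families limit their own output by splicing an exon or intron that exposes the transcript to nonsense-mediated decay, so their summed counts can include transcripts that make no full protein. In the GENCODE v29 annotation, 25 of the 32 genes had at least 1 transcript of the nonsense-mediated decay type and 23 had at least 1 with a retained intron. The gene counts used here add up all of these forms and cannot tell them apart.

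Total gene counts ran from 39111793 to 70439496 per library. The siNC libraries held TRAIP mRNA at 26.6, 28.3 and 28.4 CPM (counts scaled to library size, with edgeR's TMM factors) and the siTRAIP libraries at 12.5, 14.7 and 11.6 CPM, so the groups did not overlap and the labels held (log2 fold change -1.11, SE 0.07, edgeR adjusted p = 6.74e-10). Of the epithelial markers, KRT7, KRT8 and KRT18 were high (mean 326, 250 and 158 RPKM in siNC and 276, 227 and 156 RPKM in siTRAIP), while KRT5, CDH1, GATA3 and the uroplakin genes UPK1A, UPK2 and UPK3A all had siNC means below 1 RPKM. The summed level of the epithelial list was 730 to 751 RPKM in siNC and 644 to 709 RPKM in siTRAIP, and 1 of its 7 tested genes, KRT7, fell (log2 fold change -0.18, edgeR adjusted p = 0.00375). Markers of other cell types gave a summed level of 0.106 to 0.557 RPKM per library for fibroblasts and 0.0047 to 0.035 RPKM for endothelium; the highest fibroblast sum was in siTRAIP replicate 3. The leukocyte sum, 15.8 to 16.9 RPKM in siNC and 17.4 to 20.5 RPKM in siTRAIP, was almost all CD68, a lysosomal gene that rose (log2 fold change 0.31, edgeR adjusted p = 9.16e-04), and PTPRC, the defining leukocyte marker, had means of 0.0014 RPKM in siNC and 0.004 RPKM in siTRAIP. The part of these marker levels in the results was not tested. Within a group, siTRAIP replicate 3 stood apart: against its 2 sister libraries it gave a chi-square per degree of freedom of 15.9 and 16.4, and the other 4 same-group pairs gave 3.20 to 7.32. The labels do not state separate cultures for the 3 libraries of a group, so p-values reflect the spread between these samples alone, and that spread may be technical.

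Of the 32 genes, 7 rose and none fell at an edgeR adjusted p below 0.05 (quasi-likelihood test, adjusted over all 18685 genes tested), which is 21.9% of the group. In bulk RNA, a change in the share of cells expressing a gene and one in RNA per cell cannot be told apart. Those 7 were SRSF4 and SRSF11 among the SR genes and HNRNPDL, HNRNPM, HNRNPD, HNRNPR and HNRNPH3 among the hnRNP genes. The background was 12.8% of all genes tested, 7.47% higher and 5.34% lower. Among the 10418 genes whose mean CPM reached that of the lowest member it was 20.5%, 11.9% higher and 8.58% lower. The share called in either direction was thus near that of genes at or above this floor of 5.545 CPM, set by SRSF8. All 7 calls were rises, for which the background in that set was 11.9%. Members reached a mean of 4005 CPM, so these genes were not matched to them in abundance. At an unadjusted edgeR p below 0.05, 2 SR genes and 6 hnRNP genes were higher and 0 were lower. The share of all genes at that unadjusted p was not counted. DESeq2 also called 7 rises and 0 falls among the 32, against 1289 rises and 839 falls among 13383 genes. Most changes were slight, with a median absolute log2 fold change of 0.06 over the 32 genes. That median was 0.09 over genes at or above the CPM floor and 0.12 over all genes tested. The 7 rises depended on how the libraries were scaled. With library totals in place of TMM factors 3 genes rose, SRSF4, SRSF11 and HNRNPDL, and none fell, while the split over all genes moved from 1396 up and 997 down to 838 up and 2050 down. Only SRSF4 rose with limma on RPKM values, on both scales tried. Leaving out siNC replicate 1, 2 or 3 left 4, 4 and 3 rises, and leaving out siTRAIP replicate 1 left 5. Leaving out siTRAIP replicate 2 or 3 gave 8 rises each. Over all genes, 878, 945 and 932 rose without siNC replicate 1, 2 or 3. Without siTRAIP replicate 1, 2 or 3, 1065, 1156 and 1471 of all genes rose.

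**Figure D1:**
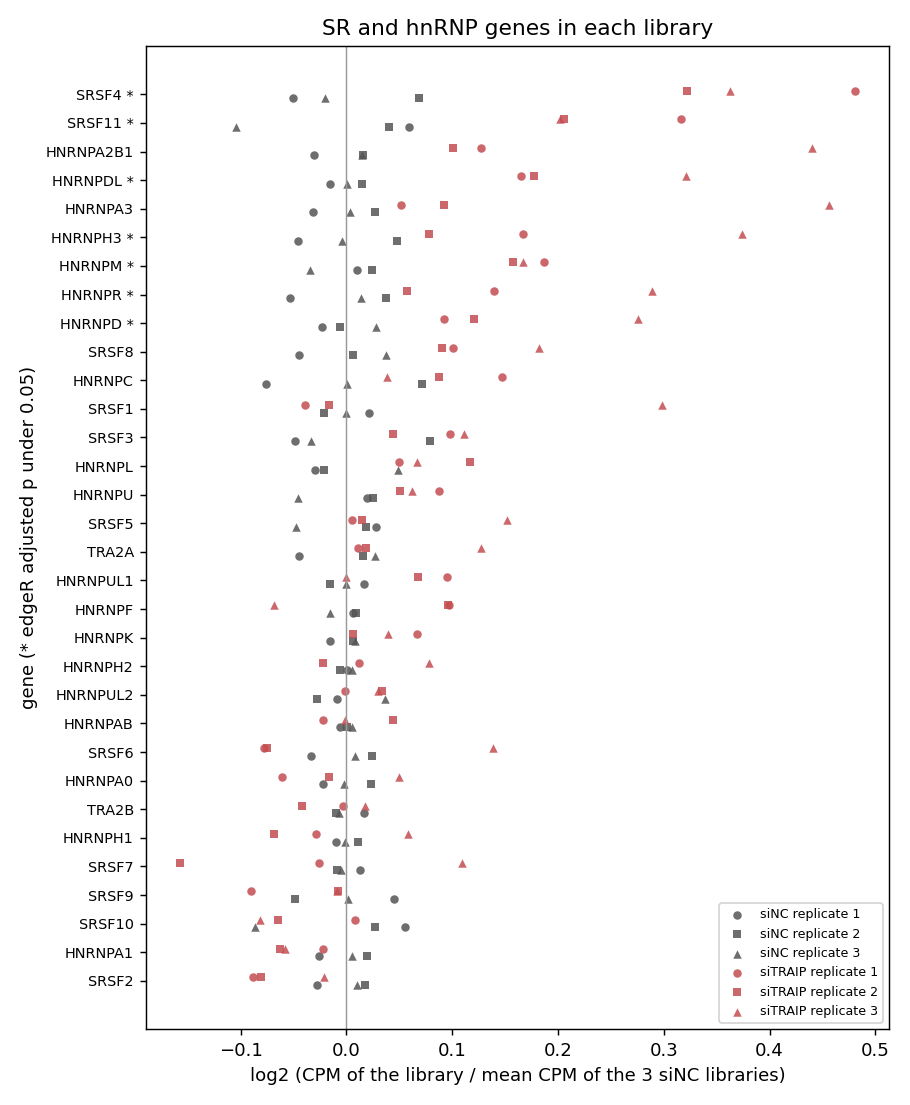
Each row is a gene, ordered by its log2 fold change, and each point a library: the x axis is log2 of the library's CPM over the mean CPM of the 3 siNC libraries (grey siNC, red siTRAIP; circle, square and triangle for replicates 1, 2 and 3; an asterisk marks an edgeR adjusted p below 0.05). All 3 siTRAIP points of SRSF4 lie to the right of all siNC points, and the siTRAIP replicate 3 triangle lies far to the right of its group in HNRNPA3, HNRNPA2B1 and SRSF1.

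Among the SR genes, SRSF4 and SRSF11 rose, and the other 11 did not pass the test. SRSF4, one of the larger SR proteins with a long arginine-serine domain, had 235, 256 and 240 CPM in siNC and 340, 305 and 313 CPM in siTRAIP. All 3 siTRAIP libraries lay above all siNC libraries, with replicate 1 the highest. The mean went from 244 ± 10.6 to 319 ± 18.5 CPM (SD, n = 3 each), 31.0% higher, a difference of 0.39 on the log2 scale (SE 0.05; adjusted p = 2.98e-06, edgeR). SRSF4 lies on chromosome 1 from 29147743 to 29181987 on the minus strand (GRCh38), and no opposite-strand gene shares its exons. It was the only member called under all 16 alternative settings run, where its log2 fold change lay between 0.32 and 0.42.

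The gene SRSF11, whose product carries an arginine-serine domain and contacts the U2AF factor at the 3' splice site, had 596, 588 and 532 CPM in siNC and 712, 659 and 658 CPM in siTRAIP. The lowest siTRAIP library was above the highest siNC library. The mean went from 572 ± 34.8 to 677 ± 30.9 CPM (SD, n = 3 each), a difference of 0.24 on the log2 scale (SE 0.05; adjusted p = 0.00108, edgeR). The gene lies on chromosome 1 from 70205682 to 70253052, and its call was lost with limma on log2(RPKM + 0.1) (adjusted p = 0.0763) and on log2(RPKM + 1) (adjusted p = 0.0786), where RPKM is reads scaled to gene length and library size.

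SRSF1, a splicing regulator and proto-oncogene product that MYC is known to induce, was the most abundant SR gene per length, at 103 ± 2.27 RPKM in siNC and 105 ± 14.2 RPKM in siTRAIP (SD, n = 3 each). Its 3 siNC libraries had 341, 331 and 336 CPM and its siTRAIP libraries 327, 332 and 413 CPM. Only siTRAIP replicate 3 was high, and the groups overlapped. The log2 fold change of 0.09 (adjusted p = 0.604, edgeR; SE 0.09) was -0.03 without that library. In GENCODE v29, AC015813.2 on the same strand shares 56.6% of the exonic bases of SRSF1, so its count is uncertain.

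SRSF3, a small SR protein that also acts in mRNA export, had 212, 231 and 214 CPM in siNC and 235, 226 and 237 CPM in siTRAIP, with overlapping groups (log2 fold change 0.08, SE 0.04, edgeR adjusted p = 0.239). SRSF9 had 258, 241 and 250 CPM in siNC and 235, 248 and 248 CPM in siTRAIP, again overlapping (log2 fold change -0.03, SE 0.04, edgeR adjusted p = 0.685); GATC on the opposite strand shares 46.2% of its exonic bases. The 8 remaining genes, SRSF2, SRSF5, SRSF6, SRSF7, SRSF8, SRSF10, TRA2A and TRA2B, had log2 fold changes from -0.06 (SRSF2) to 0.13 (SRSF8), and none passed. SRSF2, an SR protein recurrently mutated in myeloid cancers, had the lowest value of the 32 (SE 0.05, edgeR adjusted p = 0.464), and MFSD11 on the opposite strand shares 36.7% of its exonic bases. SRSF8 was scarce, with siNC at 5.14 to 5.44 CPM and siTRAIP at 5.65 to 6.02 CPM; its groups did not overlap, yet the edgeR adjusted p was 0.462. SRSF6 and SRSF7, which bind exonic enhancers, had log2 fold changes of 0.0001 and -0.02, and siTRAIP replicate 3 lay 0.14 and 0.13 above the siTRAIP mean on the log2 scale. The 2 Tra2 genes, whose products bind GAA-rich exonic enhancers, did not separate the groups, which spanned 65.7 to 69.0 CPM (siNC) and 68.2 to 74.0 CPM (siTRAIP) for TRA2A, and 235 to 239 CPM and 230 to 239 CPM for TRA2B.

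The 3 hnRNP genes of the A/B core, HNRNPA1, HNRNPA2B1 and HNRNPA3, were the most abundant of the 32 per gene length, and none passed the test. HNRNPA1, which binds UAGG-type silencers, had 804, 819 and 825 RPKM in siNC and 764, 755 and 751 RPKM in siTRAIP. On that scale, which uses library totals, every siTRAIP library was below every siNC library; on the TMM scale the groups overlapped, with siNC at 3999 to 4127 CPM and siTRAIP at 3898 to 4009 CPM. The HNRNPA1 log2 fold change was -0.05 (adjusted p = 0.509, edgeR; SE 0.04), and with library totals -0.11 (adjusted p = 0.052). GENCODE v29 lists 75 HNRNPA1 pseudogenes, of which the 68 in the table held counts equal to 1.05% of those of the gene itself, so some of its reads may have been placed elsewhere.

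HNRNPA2B1, which also sorts RNAs for transport, had 3553, 3668 and 3666 CPM in siNC and 3963, 3892 and 4921 CPM in siTRAIP. All siTRAIP libraries were above all siNC libraries, but replicate 3 was far above the other 2. The log2 fold change of 0.23 had a wide error (SE 0.09, edgeR adjusted p = 0.161). Without siTRAIP replicate 3 it was smaller, 0.11, and passed (edgeR adjusted p = 0.00779); it also passed without siTRAIP replicate 2 (adjusted p = 0.0335), with replicate number as a block (0.22, adjusted p = 0.0165) and without robust variance estimates (0.0307). HNRNPA3 showed the same layout, with 2005, 2089 and 2055 CPM in siNC and 2123, 2185 and 2812 CPM in siTRAIP. Its log2 fold change of 0.21 (adjusted p = 0.374, edgeR; SE 0.12) was 0.07 without that library (adjusted p = 0.136). HNRNPA0 was scarce among the hnRNP genes (29.02 to 31.3 CPM over the 6 libraries), and HNRNPAB spanned 483 to 487 CPM (siNC) and 478 to 500 CPM (siTRAIP); the log2 fold changes of both were within 0.01 of 0.

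**Figure D2:**
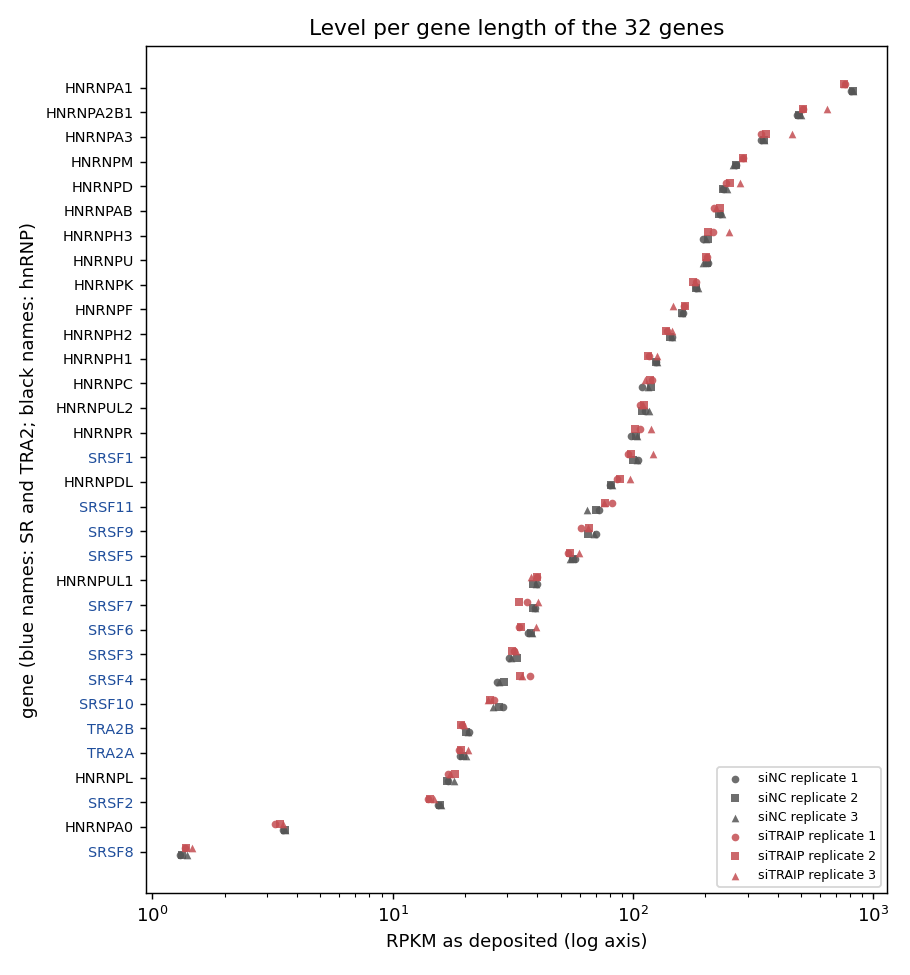
Levels per gene length of the 32 genes, as deposited RPKM on a log axis, with 1 point per library (grey siNC, red siTRAIP; marker shape for the replicate; blue names SR and TRA2, black names hnRNP). HNRNPA1 is the highest at 751 to 825 RPKM and SRSF8 the lowest at 1.31 to 1.46 RPKM; the spread between genes is far wider than that between libraries of 1 gene.

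HNRNPD and HNRNPDL, close relatives that bind AU-rich elements and act in mRNA turnover, both rose. They are neighbours on the minus strand of chromosome 4, HNRNPD from 82352498 to 82374503 and HNRNPDL from 82422564 to 82430408, with 48060 bases between them. HNRNPDL had 429, 438 and 434 CPM in siNC and 486, 490 and 541 CPM in siTRAIP, so that every siTRAIP library was higher. Its mean went from 433 ± 4.57 to 506 ± 30.8 CPM (SD, n = 3 each), a difference of 0.22 on the log2 scale (SE 0.04; adjusted p = 0.00133, edgeR). HNRNPD had 1615, 1634 and 1673 CPM in siNC and 1749, 1784 and 1986 CPM in siTRAIP, again without overlap. Its mean went from 1641 ± 29.4 to 1840 ± 128 CPM (SD, n = 3 each), a difference of 0.17 on the log2 scale (SE 0.05; adjusted p = 0.0182, edgeR). Replicate 3 was the highest siTRAIP library for both genes; without it the log2 fold changes were 0.17 for HNRNPDL and 0.11 for HNRNPD, and both passed (edgeR adjusted p = 4.50e-04 and 0.0184). The HNRNPD call was lost without siNC replicate 1, 2 or 3 (adjusted p from 0.0561 to 0.11), with library totals (0.12) and on both RPKM scales (0.275 and 0.28); the HNRNPDL call was lost on both RPKM scales alone (0.0882 and 0.0903).

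HNRNPM, which binds GU-rich motifs and regulates exon choice in epithelial to mesenchymal transition, rose with a narrow spread. It lies on chromosome 19 from 8444767 to 8489114, and the values were 1472, 1486 and 1427 CPM in siNC against 1663, 1630 and 1640.5 CPM in siTRAIP. No library crossed between the groups, and siTRAIP replicate 3 lay between its sister libraries. The mean went from 1461 ± 30.9 to 1645 ± 17.0 CPM (SD, n = 3 each), a difference of 0.17 on the log2 scale (SE 0.04; adjusted p = 0.00504, edgeR), and the same 0.17 without replicate 3. Its call was lost with library totals (adjusted p = 0.0501), on the RPKM scales (0.0632 and 0.0668) and without siNC replicate 3 (0.0564).

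HNRNPH3 and HNRNPR, a member of the G-run binding F/H family and a relative of SYNCRIP, rose, and siTRAIP replicate 3 was the highest library for both. HNRNPH3 (chromosome 10, 68331174 to 68343191) had 1025, 1094 and 1055 CPM in siNC and 1188, 1117 and 1371 CPM in siTRAIP. Its log2 fold change was 0.21 (adjusted p = 0.0429, edgeR; SE 0.06), and 0.12 without siTRAIP replicate 3, where it still passed (adjusted p = 0.0148). HNRNPR (chromosome 1, 23303771 to 23344336) had 833, 887 and 873 CPM in siNC and 952, 900 and 1057 CPM in siTRAIP. Its log2 fold change of 0.17 (adjusted p = 0.0335, edgeR; SE 0.05) was 0.10 without siTRAIP replicate 3 and no longer passed (adjusted p = 0.0586). The groups of both genes did not overlap, with siTRAIP replicate 2 just above the highest siNC library. The calls were also lost without siNC replicate 1 (adjusted p = 0.141 and 0.183 for HNRNPH3 and HNRNPR), siNC replicate 2 (0.0579 and 0.0672), siNC replicate 3 (0.114 and 0.0964) or siTRAIP replicate 1 (0.0922 and 0.0653), with library totals (0.114 and 0.151) and on both RPKM scales (0.252 to 0.332), and that of HNRNPR without robust variance estimates (0.0504). The other F/H genes did not pass: the log2 fold changes were 0.04 for HNRNPF, -0.01 for HNRNPH1 and 0.02 for HNRNPH2, each with SE 0.04 or 0.05, and their difference from HNRNPH3 was not tested.

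HNRNPC, which binds uridine tracts on nascent RNA, had 775, 858 and 817 CPM in siNC and 905, 868 and 839 CPM in siTRAIP. The groups overlapped through siTRAIP replicate 3, here the lowest of its group, and the log2 fold change was 0.09 (adjusted p = 0.211, edgeR; SE 0.04), or 0.12 and past the threshold without that library (adjusted p = 0.0344). HNRNPL, which binds CA repeats, had 113, 114 and 120 CPM in siNC and 120, 125 and 121 CPM in siTRAIP. The lowest siTRAIP library, at 119.64 CPM, barely cleared the highest siNC library, at 119.62 CPM, and the gene, at 0.08 on the log2 scale (SE 0.04), missed the threshold (edgeR adjusted p = 0.275). The poly(C)-binding HNRNPK and the nuclear scaffold proteins HNRNPU, HNRNPUL1 and HNRNPUL2 had log2 fold changes of 0.04, 0.07, 0.05 and 0.02. None of these 4 passed (edgeR adjusted p from 0.328 to 0.815), and the read-through gene HNRNPUL2-BSCL2 shares 44.2% of the exonic bases of HNRNPUL2.

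Over the hnRNP genes as a whole, 5 rose, none fell and 14 were not called, with a median log2 fold change of 0.07; over the SR and TRA2 genes the counts were 2, 0 and 11, with a median of 0.05. The median over all genes tested was -0.0017. On the TMM scale, all siTRAIP libraries lay above all siNC libraries for 12 of the 32 genes and below them for 0. The background was 14.8% and 14.4% of all genes tested. It was not counted for genes at or above the CPM floor. The 12 include SRSF8, HNRNPA2B1, HNRNPA3, HNRNPL and HNRNPU, which were not called. With library totals the medians were 0.01 for the hnRNP genes, -0.01 for the SR genes and -0.06 for all genes. In that setting 17 of the 32 log2 fold changes were below 0, against 8 with TMM factors. The 32 genes together took 2.63% to 2.66% of all gene counts in the siNC libraries, and 2.66%, 2.66% and 2.89% in siTRAIP replicates 1, 2 and 3.

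The last of these shares belongs to the library that stood apart. In siTRAIP replicate 3, 8 of the 32 genes lay more than 0.1 above their group mean on the log2 scale, HNRNPA3 (0.26), SRSF1 (0.22), HNRNPA2B1 (0.22), HNRNPH3 (0.17), SRSF6 (0.14), SRSF7 (0.13), HNRNPR (0.13) and HNRNPD (0.11); no gene of the group did so in any other library. In that library the median absolute deviation from the group mean was 0.05 for the 32 genes. It was also 0.05 for all genes at or above the mean CPM of the lowest member. Without siTRAIP replicate 3, 8 of the 32 genes rose and none fell (background over all genes tested 7.71% higher and 6.03% lower). That background was not counted at the CPM floor. The 8 genes were 6 of the 7 above, with HNRNPR lost and HNRNPA2B1 and HNRNPC gained. Of the 32 log2 fold changes, 24 were above 0 with all libraries and 21 without it. What set that library apart was not tested.

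**Figure D3:**
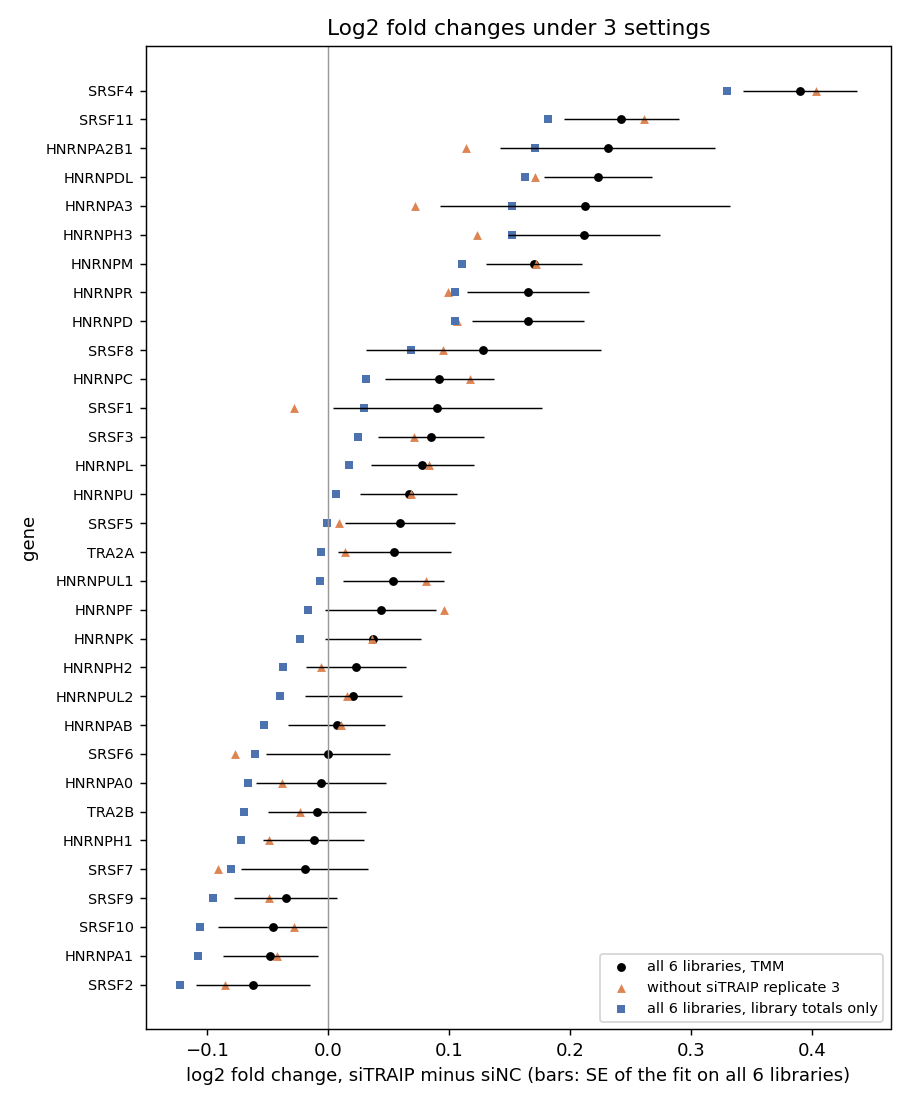
Log2 fold change of each gene (siTRAIP minus siNC) from all 6 libraries with TMM factors (black, bars SE), without siTRAIP replicate 3 (orange) and with library totals only (blue). Leaving out the library moved HNRNPA3, HNRNPA2B1 and SRSF1 furthest to the left, SRSF1 past 0, while SRSF4, SRSF11 and HNRNPM moved little; library totals shifted all genes left by a similar amount.

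Promoters were read because the series title names MYC, which binds the E-box CACGTG together with MAX. In RefSeq windows of 300 bases (250 before and 50 after a gene's start, GRCh38.p14), 29 of the 32 genes had an entry, 10 of the 32 had more than 1 window, and a gene counted where any of its windows held the letters. CACGTG, which reads the same on both strands, was present in 7 of the 29 genes: in 4 of the 7 that rose (HNRNPD, HNRNPDL, HNRNPH3 and HNRNPM) and in 3 of the 22 others (HNRNPA3, HNRNPH2 and HNRNPUL1). Of the 10592 tested genes with a window 12.4% held it, and 7.3% of all 35116 windows did. The letters are a description of the sequence and do not show that any factor was bound. For comparison, the ETS-type core CCGGAAG, searched on both strands, was in 2 of the 7 and 2 of the 22, against 21.6% of tested genes, and CCAAT, on both strands, in 3 and 15, against 43.1%. SRSF4 and SRSF11, with the largest log2 fold changes among the 7, held no CACGTG in their windows.

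The 160 bases just before the RefSeq start are shown for the 4 genes that rose and held the E-box. They are also shown for HNRNPH2, which held it in 2 places and had a log2 fold change of 0.02. The surroundings of the letters can thus be compared. Capitals mark CACGTG, and each sequence reads 5' to 3' towards that start. In the annotation of the counts HNRNPD, HNRNPH3 and HNRNPM begin further upstream, so their stretches lie inside the gene spans. The stretches shown for HNRNPDL and HNRNPH2 lie outside those spans. The intervals are chr4:82373992-82374151 (minus strand) for HNRNPD, chr4:82430463-82430622 (minus) for 1 of the 2 windows of HNRNPDL, both of which held the letters, chr10:68331533-68331692 (plus) for HNRNPH3, chr19:8444815-8444974 (plus) for HNRNPM and chrX:101408062-101408221 (plus) for HNRNPH2.
HNRNPD: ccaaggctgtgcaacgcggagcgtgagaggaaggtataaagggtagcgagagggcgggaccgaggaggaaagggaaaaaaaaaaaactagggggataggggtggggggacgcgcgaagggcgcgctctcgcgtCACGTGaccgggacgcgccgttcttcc
HNRNPDL: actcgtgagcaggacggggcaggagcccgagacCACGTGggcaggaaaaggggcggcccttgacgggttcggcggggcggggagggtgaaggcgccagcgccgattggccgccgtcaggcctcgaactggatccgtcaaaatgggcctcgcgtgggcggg
HNRNPH3: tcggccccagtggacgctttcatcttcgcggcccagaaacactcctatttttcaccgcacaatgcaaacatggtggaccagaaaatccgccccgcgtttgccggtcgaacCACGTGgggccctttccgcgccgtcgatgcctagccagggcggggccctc
HNRNPM: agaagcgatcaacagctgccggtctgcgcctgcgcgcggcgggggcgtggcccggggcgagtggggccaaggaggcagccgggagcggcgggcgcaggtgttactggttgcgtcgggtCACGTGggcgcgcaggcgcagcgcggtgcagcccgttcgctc
HNRNPH2: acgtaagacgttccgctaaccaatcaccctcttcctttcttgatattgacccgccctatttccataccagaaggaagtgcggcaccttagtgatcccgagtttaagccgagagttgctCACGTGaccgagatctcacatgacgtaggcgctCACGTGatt
The E-box began 27 bases before the RefSeq start in HNRNPD, 127 in this window of HNRNPDL, 50 in HNRNPH3 and 42 in HNRNPM, and 42 and 9 in HNRNPH2. In HNRNPD, HNRNPH2, HNRNPH3 and HNRNPM it lay within 50 bases of the RefSeq start, and their log2 fold changes ran from 0.02 to 0.21. For HNRNPH3 this held for the window shown alone, and its other windows had 0 CACGTG in the 250 bases before the start. Over all windows, the 250 bases before the start had a median GC content of 64.8% for the 29 genes and 64.0% for genes tested. The windows that held the letters were not compared on their own.

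Transcripts were also searched for 2 pairs of 7-letter words that earlier work on these same fold changes had picked out, TCGGAGA or CGGAGAA for genes that rose and ACAGTCT or CAGTCTA for genes that fell. In the coding sequence and the region after it (the transcript with the longest coding sequence, GENCODE v29, 9124 genes with a mean of at least 5 CPM), the first pair was in 6 of the 32 genes, 18.8%, and in 18.8% of all genes searched. SRSF11 and HNRNPD were the 2 of the 7 that rose to hold it, against 32.9% of all called rises. The words were picked from these fold changes, so that 32.9% is not an independent measure. The second pair was in 9 of the 32, 28.1%, against 28.3% of all genes searched. The same 2 of the 7 that rose, SRSF11 and HNRNPD, held this pair as well. The splicing factors as a group were thus at the background for both pairs, and SRSF4, HNRNPDL, HNRNPM, HNRNPH3 and HNRNPR held neither.

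Genes that act with the SR and hnRNP proteins were counted from 5 lists of 134 genes in all, of which 132 were tested. The lists were chosen with earlier results of these data known, so their shares are not an independent measure. Of all genes 12.8% were called, and of genes at or above the mean CPM of the lowest member 20.5% (11.9% higher and 8.58% lower). Of the 132 tested list genes 33 rose and 7 fell, 30.3% called, with a median log2 fold change of 0.06. With library totals, which lower the median of all genes to -0.06, 18 rose and 19 fell (13.6% and 14.4%), and of all genes tested 4.48% rose and 11% fell. Without siNC replicate 1, 20 rose and 4 fell. Among 12 SR kinases and import receptors 4 rose and 1 fell, so 41.7% were called. Without siNC replicate 1, 1 rose, and 2 rose without siNC replicate 2 or siTRAIP replicate 1. With library totals 2 rose and 1 fell, and with limma on either RPKM scale 1 rose and 1 fell. CLK1, CLK4 and CLK3, nuclear kinases that phosphorylate SR proteins and release them from speckles, had log2 fold changes of 0.26 (SE 0.04), 0.25 (SE 0.06) and 0.19 (SE 0.05), with edgeR adjusted p = 2.98e-04, 0.00947 and 0.0118. The CLK1 level went from 52.2 ± 1.23 to 62.4 ± 0.313 CPM (SD, n = 3 each), and it passed in all 16 alternative settings. The fourth rise was TNPO3, which imports phosphorylated SR proteins into the nucleus (log2 fold change 0.14, edgeR adjusted p = 0.0334; named after its value was seen). The TNPO3 call was lost in 10 of the 16 settings: with the replicate block (adjusted p = 0.0656), with no filter (0.0645), without any one siNC library (0.0561 to 0.152), without siTRAIP replicate 1 or 2 (0.102 and 0.0748), with library totals (0.261) and on both RPKM scales (0.234 and 0.229). TNPO1, the import receptor that carries hnRNP A1 and related proteins, fell from 209 ± 6.32 to 175 ± 4.87 CPM (SD, n = 3 each), a difference of -0.25 on the log2 scale (SE 0.04; adjusted p = 1.94e-04, edgeR), and passed in all 16 settings. The calls of CLK4 and CLK3 were lost without siNC replicate 1 (adjusted p = 0.0949 and 0.0892) and on both RPKM scales (0.129 to 0.268), and that of CLK3 also without siNC replicate 2 (0.0592), without siTRAIP replicate 1 (0.0501) and with library totals (0.0907).

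Of 24 tested SR-related proteins 9 rose and 1 fell. The share called was 41.7%, against 12.8% of all genes tested and 20.5% of those at or above the CPM floor. With library totals 7 rose and 4 fell, and with limma on either RPKM scale 4 rose and 1 fell. With 1 library left out, from 7 to 11 rose and 1 fell. The U1 snRNP-associated LUC7 family split: LUC7L2 differed by 0.43 on the log2 scale (SE 0.05; adjusted p = 2.32e-06, edgeR), LUC7L3 by 0.30 (SE 0.05, adjusted p = 6.63e-05) and LUC7L by -0.43 (SE 0.05, adjusted p = 3.89e-06). In siNC LUC7L had 63.3 ± 1.70 CPM, against 47.2 ± 3.38 CPM after knockdown, and LUC7L2 went from 387 ± 27.4 to 522 ± 22.2 CPM (SD, n = 3 each); all 3 genes passed in all 16 settings, although the read-through gene C7orf55-LUC7L2 and FMC1 share 22.9% of the exonic bases of LUC7L2. PPIG, a cyclophilin with an arginine-serine domain, rose by 0.33 (SE 0.05, adjusted p = 1.05e-04) on the log2 scale.

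Of 36 other splicing regulators 5 rose and 4 fell, so 25% were called. The share was 12.8% of all genes tested and 20.5% of those at or above the CPM floor. Without siNC replicate 1, 3 rose and 2 fell, and without siNC replicate 3, 3 rose and 4 fell. With library totals 3 rose and 7 fell, and with limma on either RPKM scale 1 rose and 5 fell. PTBP3, a polypyrimidine tract binding protein, fell from 43.3 ± 1.73 to 29.4 ± 2.57 CPM (SD, n = 3 each), the largest change in these 5 lists (log2 fold change -0.55, SE 0.06, edgeR adjusted p = 5.56e-07). MBNL2, a muscleblind splicing regulator, fell by 0.27 (SE 0.06, adjusted p = 0.00254) on the log2 scale. SFPQ, a paraspeckle protein, rose by 0.23 (SE 0.04, adjusted p = 7.54e-04), although its call was lost on both RPKM scales (0.0501 and 0.0533), and TAF15, an RNA-binding protein, by 0.42 (SE 0.08, adjusted p = 0.00791). TAF15 was another gene with its highest value in siTRAIP replicate 3, at 964, 984 and 1201 CPM for siTRAIP against 767 to 811 CPM for siNC, and without that library its log2 fold change was 0.31 and passed.

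Of 45 core spliceosome genes 12 rose, 1 fell and 32 were not called, with a median log2 fold change of 0.05. The share called was 28.9%, against 12.8% of all genes tested and 20.5% of those at or above the CPM floor. The count depended on the setting: 7 rose without siNC replicate 1 or siTRAIP replicate 1, 8 without siNC replicate 2 or siTRAIP replicate 2, 5 rose and 5 fell with library totals, and 1 rose and 2 fell with limma on either RPKM scale. SNRPB, a Sm core protein whose own exon choice tunes its output, rose from 242 ± 16.2 to 313 ± 5.02 CPM (SD, n = 3 each; log2 fold change 0.37, SE 0.05, edgeR adjusted p = 5.74e-06), although AL049650.1 on the same strand shares 20.0% of its exonic bases. The second-step factor SLU7 rose by 0.22, and PRPF31 and PRPF3, of the U4/U6 snRNP, by 0.20 and 0.18 on the log2 scale (edgeR adjusted p = 0.0026, 0.00328 and 0.00411); all 3 calls were lost on both RPKM scales, with adjusted p from 0.0813 to 0.1. Genes on the opposite strand share 31.99% of the exonic bases of PRPF31. The 1 core gene that fell was DHX16 (log2 fold change -0.14, edgeR adjusted p = 0.0282; named after its value was seen). Its call was lost with the replicate block (adjusted p = 0.0596), without siNC replicate 1, 2 or 3 (0.116, 0.0801 and 0.0643) and without siTRAIP replicate 1 (0.0634).

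Of 15 genes of nonsense-mediated decay and the exon junction complex 3 rose and 0 fell with edgeR, and 4 rose and 0 fell with DESeq2. At an unadjusted edgeR p below 0.05, 5 were higher and 3 lower, and the share of all genes at that p was not counted. The share called in either direction was 20% of the list, against 20.5% of genes at or above the mean CPM of the lowest member. All 3 calls were rises, for which the background in that set was 11.9%. The floor of that set comes from the SR and hnRNP members, so its genes were not matched to this list in abundance. Without siNC replicate 1 or 3 or siTRAIP replicate 1, 1 rose, and without siNC replicate 2 or siTRAIP replicate 3, 1 fell. With library totals 1 rose and 2 fell, and with limma on either RPKM scale 1 rose and 1 fell. UPF2, which bridges UPF1 to the exon junction complex, rose by 0.20 (SE 0.04, adjusted p = 0.00236) on the log2 scale, and RBM8A, a core junction protein, by 0.16 (SE 0.05, adjusted p = 0.0297); the UPF2 call was lost on both RPKM scales (0.0699 and 0.069). CASC3, another junction protein, had 294, 311 and 296 CPM in siNC and 410, 360 and 483 CPM in siTRAIP, with siTRAIP replicate 3 again the highest. Its log2 fold change of 0.48 (adjusted p = 0.0491, edgeR; SE 0.11) passed narrowly, and it was lost without siNC replicate 1, 2 or 3 or siTRAIP replicate 1 (adjusted p from 0.0935 to 0.143) and with library totals (0.0597). The RBM8A call was lost without siNC replicate 1 or 3 or siTRAIP replicate 1 or 2 (adjusted p from 0.0767 to 0.229), with library totals (0.153), on both RPKM scales (0.285 and 0.287) and without robust variance estimates (0.0519), and opposite-strand genes share 25.1% of its exonic bases.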

How the data were processed

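Values of 6 libraries were analysed; groups and replicate numbers come from the sample titles. The authors deposited raw counts per gene and RPKM values; RPKM equalled the count over gene length and library sum within a relative difference of 1.3e-06. Per the submitters' processing notes, Trimmomatic 0.36, featureCounts, Subread 1.5.1 and GRCh38 were used; the library kit keeps strand, per the labels' protocols, while the aligner, annotation release and strand setting of the counting are not given in these sources. Gene length sums all annotated exons, which lowers the RPKM of genes with retained-intron forms. Of counts from 1 to 10, 70.2% were even, so both reads of a pair may have been counted.

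Counts were fitted over the whole table with edgeR 4.0.16 in R 4.3.3 (filterByExpr, TMM, robust quasi-likelihood F-test, 2-sided, Benjamini-Hochberg over 18685 genes, threshold 0.05), and the script was tested on simulated data. A called gene is one past that threshold; the SE is the log2 fold change divided by the square root of F. Alternatives were DESeq2 1.42.0, RLE factors, library totals, 2 count filters, the replicate block, each library left out, robust=FALSE, limma 3.58.1 on log2(RPKM + 0.1) and log2(RPKM + 1), and, chosen after seeing the data, halved counts.

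The members and lists were chosen with earlier results of these data known. All 32 members are accounted for; values per library are given for called members, the 4 others with the smallest p and the 3 most abundant of each family. From each further list, up to 4 called genes with the smallest p are named; TNPO3 and DHX16 were added after their values were seen. Exon overlaps come from GENCODE v29, whose exonic length equalled the table's for 29 of the 32 members. Protein sequences are not used here.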

Additional observations from a re-analysis of the deposited data

How the results depend on the processing

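Limits: groups of 3 libraries, 1 reagent, changes mostly below 0.25 on the log2 scale, and unknown strand counting. TRAIP ranged from -1.21 to -0.99 on the log2 scale and passed in all 16 alternatives. Of 112 values of the 7 called members under alternatives, 82 kept the call, 30 lost it and 0 changed sign; of 400 values of the 25 others, 5 gained a call and 41 changed sign; of 336 values of the 21 further named called genes, 289 kept the call and 47 lost it. With 1 library left out, the calls ran from 1480 to 2622 over all genes (878 to 1471 up, 602 to 1151 down), from 1 to 6 hnRNP rises, and from 20 to 35 rises and 4 to 10 falls in the 5 further lists, with fewer samples in each fit. Library totals gave 838 up and 2050 down over all genes, 1 hnRNP rise, and 18 rises and 19 falls in the lists; this leaves out TMM factors of 1.01 to 1.03 in siNC and 0.971 to 0.987 in siTRAIP, which sets siTRAIP lower by construction. Limma on log2(RPKM + 0.1) called 1520 genes (461 up), 1 SR rise, 0 hnRNP rises and 8 list rises, and on log2(RPKM + 1) 1519 genes (450 up), 1, 0 and 8; these scales also use library totals, and the rest of the cause was not tested.

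Sign changes were confined to members not called. With library totals the log2 fold changes were -0.0008 for SRSF5, -0.06 for SRSF6, -0.0056 for TRA2A, -0.0529 for HNRNPAB, -0.0168 for HNRNPF, -0.0372 for HNRNPH2, -0.023 for HNRNPK, -0.0062 for HNRNPUL1 and -0.0393 for HNRNPUL2. On log2(RPKM + 0.1) they were -0.0026, -0.0645, -0.0076, -0.0533, -0.0186, -0.0378, -0.023, -0.0062 and -0.0391, and on log2(RPKM + 1) -0.0026, -0.0628, -0.0072, -0.0531, -0.0184, -0.0376, -0.0228, -0.0061 and -0.0387, in the same order. SRSF6, at 0.0001 in the fit reported, was also -0.0021 with no filter, -0.0014 with the CPM filter, -0.0039 with the replicate block and -0.0027 with halved counts. With 1 library left out, values ran from -0.0280 to 0.15 for SRSF1, -0.0766 to 0.0368 for SRSF6, -0.0908 to 0.044 for SRSF7, -0.0232 to 0.0065 for TRA2B, -0.0378 to 0.0186 for HNRNPA0, -0.012 to 0.0213 for HNRNPAB, -0.0487 to 0.015 for HNRNPH1 and -0.0058 to 0.0448 for HNRNPH2.

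Same-numbered libraries did not deviate together (correlations -0.0076, -0.0177 and 0.0014), and nothing in the titles says that a number marks a shared culture. With the replicate block 2145 genes were called (1279 up, 866 down), 2 SR and 6 hnRNP rises among them, HNRNPA2B1 being the addition, and 28 rises and 6 falls in the further lists, with TNPO3 (adjusted p = 0.0656) and DHX16 (0.0596) lost among the named genes; the TRAIP log2 fold change was -1.11.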
